A study of Homo sapiens with 12 samples.

Results

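The 9 genes described here encode enzymes of the urea cycle and of amino acid breakdown (CPS1, ASS1, ASL, ARG1, TAT, TDO2, HPD, GLS2 and AADAT). They were chosen by name from the 26364 genes of the count table, and all 9 had a row in it. RNA-seq was performed in HepG2 cells, an established human line from a liver hepatocellular carcinoma, at 0, 5, 10, 30 and 240 min of insulin stimulation, with 2 libraries per time. IR (insulin receptor) ChIP-seq, which maps DNA bound by a protein, was deposited as peaks from 1 library. The question of the time course is how transcript levels in these cells moved after insulin.

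All RNA-seq groups were the same line grown in EMEM with 10% FBS. By their labels they differ only in the time given in the titles. The IR ChIP-seq library was also from HepG2 cells, and its label gives 10% FBS and 3 nM insulin, with no time in its title. The label of every RNA library, those at 0 min included, carries 1 treatment text, with 16 h in EMEM and then 3 nM insulin in EMEM BSA for 5 min, which does not match the times in the titles. The extraction texts of both assays also appear to be exchanged, so the culture conditions before stimulation are not certain. Per the methods of the study, the RNA-seq was a single experiment on biologically independent samples, and the labels do not say how the 2 libraries of a time were cultured. The 10 libraries held 18347109 to 45005769 counts on genes, with the 0 min replicate 2 library the deepest.

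The urea cycle converts ammonia, released when amino acids are broken down, into urea, and is a defining function of hepatocytes. CPS1 makes carbamoyl phosphate in mitochondria and is the entry enzyme of the cycle, ASS1 and ASL then build and split argininosuccinate, and ARG1 releases urea from arginine. TAT starts tyrosine breakdown and HPD acts at its next step, TDO2 opens the ring of tryptophan, AADAT transfers the amino group of kynurenine and 2-aminoadipate, and GLS2 is the liver-type glutaminase. In liver, several of these genes are textbook targets of glucocorticoids and of glucagon acting through cAMP, hormones whose actions insulin counters.

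Promoter sequences are shown for CPS1 and AADAT, the genes with the smallest adjusted p-values among those that fell and rose at 240 min. RefSeq windows (GRCh38.p14) were found for 8 of the 9 genes, all but TAT. Each sequence below holds the 250 bases before the most upstream RefSeq start of its gene, at chr2:210477435-210477684 on the plus strand for CPS1 and chr4:170090388-170090637 on the minus strand for AADAT. Capitals mark the core of a cAMP response element, TGACG or its reverse complement CGTCA.

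CPS1: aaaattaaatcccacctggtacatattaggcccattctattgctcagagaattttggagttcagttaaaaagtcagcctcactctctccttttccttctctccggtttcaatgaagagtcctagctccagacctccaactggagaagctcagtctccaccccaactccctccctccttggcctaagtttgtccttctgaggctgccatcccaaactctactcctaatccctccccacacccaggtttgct

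AADAT: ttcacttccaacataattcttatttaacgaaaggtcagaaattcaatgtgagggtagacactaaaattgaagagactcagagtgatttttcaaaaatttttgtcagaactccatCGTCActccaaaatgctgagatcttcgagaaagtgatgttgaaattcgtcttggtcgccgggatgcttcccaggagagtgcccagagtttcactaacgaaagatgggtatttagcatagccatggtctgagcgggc

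The CPS1 stretch held no match to any of the 4 motifs searched on both strands. The AADAT stretch held the single match in capitals, which starts 136 bases before the start site. The windows of the other AADAT starts held no match. A glucocorticoid receptor core was searched as AGAACA. A FOXO core was searched as TGTTTAC. An insulin response sequence was searched as TGTTTTG, which shares its first letters with the FOXO core but cannot match at the same position. Of 35116 RefSeq promoter windows of 300 bases, 24.6% held the core of the cAMP response element, 14.8% that of the glucocorticoid receptor, 3.42% the FOXO core and 4.92% the insulin response sequence. The glucocorticoid receptor core was found 240 bases before the start of ARG1 and 13 bases before that of TDO2. The cAMP response core was found 31 bases before the start of ASL and 186 bases before 1 of the 2 starts of HPD, whose other window held the glucocorticoid receptor core and the insulin response sequence. None of the windows of CPS1, ASS1 or GLS2 held any of these motifs. Short motifs of this kind occur in many promoters, and a match or its absence is given as a description only.

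The levels of the 9 genes spanned from among the most abundant transcripts of these cells to none detected. HPD had a mean of 808 TPM (a level scaled by transcript length and library depth), rank 132 of 13852 tested genes. ASS1 followed at 84.8 TPM, ASL at 48.4 TPM and CPS1 at 31.0 TPM, and their ranges over the 10 libraries did not meet. AADAT at 17.5 TPM and GLS2 at 15.2 TPM had overlapping ranges, and TAT stood at 4.65 TPM. ARG1 and TDO2 were at or near the limit of detection, with 0.103 TPM for ARG1 and 0 TPM in every library for TDO2. CPS1, ASS1 and ASL were thus well covered by reads, and ARG1 was not.

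**Figure D1:**
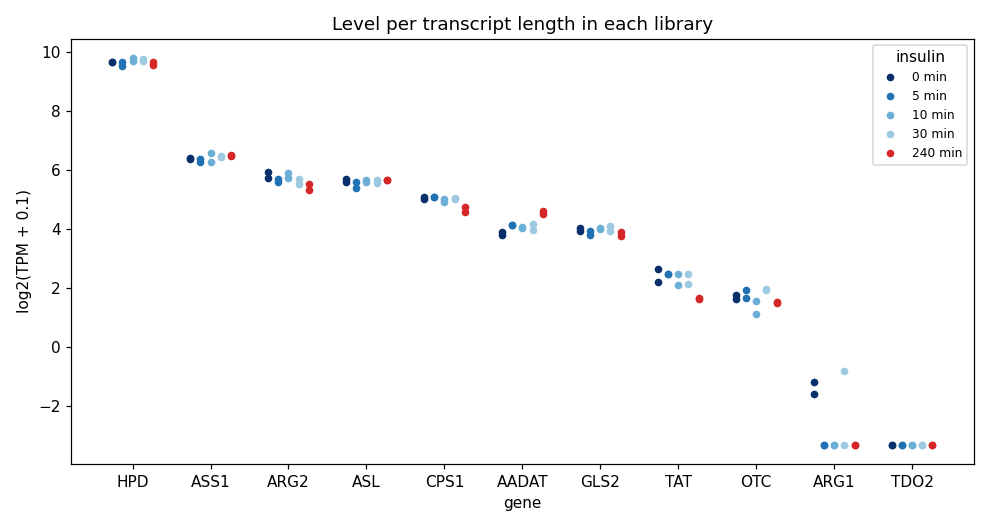
Level per transcript length of the 9 enzymes and of the related genes OTC and ARG2, as log2(TPM + 0.1), with 1 point per library and colours for the time of insulin. HPD lies above all others, AADAT lies below GLS2 at 0 min and well above it at 240 min, and TDO2 lies at the floor in all 10 libraries.

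ARG1 (chr6:131894344-131905472 in hg19, the build of all file coordinates here, plus strand) had 2 to 9 counts in each library. TDO2 (chr4:156824845-156841558, plus strand) had 6 counts in 0 min replicate 2, 1 count in 5 min replicate 1 and 0 in the other 8 libraries. A count of 0 in those libraries allows up to 3 counts, or 0.108 to 0.158 CPM (the normalized read count, after TMM scaling), for counting error only. Both genes failed the filter on low counts, so 7 of the 9 were tested and no change can be given for these. ARG2, the mitochondrial arginase, had a mean of 50.8 TPM. OTC, which joins carbamoyl phosphate to ornithine between CPS1 and ASS1, had 3.07 TPM.

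All 10 hepatocyte markers checked were present, with ALB at 13892 to 20349 CPM. PTPRC, the defining marker of blood cells, was at 0 in all 10 libraries. The 5 markers of blood and Kupffer cells summed to 5878 to 6433 CPM at 0 min and 4804 to 4945 CPM at 240 min, nearly all of it LYZ. The 5 stellate and fibroblast markers summed to 66.3 to 71.9 CPM at 0 min and 53.7 to 56.7 CPM at 240 min, mostly ACTA2, while COL1A2 was at 0 in 9 libraries. The 4 endothelial markers summed to 2.43 to 4.21 CPM over all libraries, with KDR at 0 in 9. The part of these shifts in the results at 240 min was not tested.

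At 240 min against 0 min, CPS1, TAT and GLS2 fell and AADAT rose, while ASS1, ASL and HPD did not pass the test. Thus 4 of the 7 tested enzymes (57.1%) changed by edgeR's quasi-likelihood test, at a p-value under 0.05 after Benjamini-Hochberg adjustment, beside 41.0% of all 13852 genes tested. Among all genes 20.6% were called higher and 20.4% lower. The median log2 fold change of the 7 enzymes was -0.074, against -0.0026 for all genes. Such bulk values cannot tell fewer cells of a type from less RNA per cell.

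**Figure D2:**
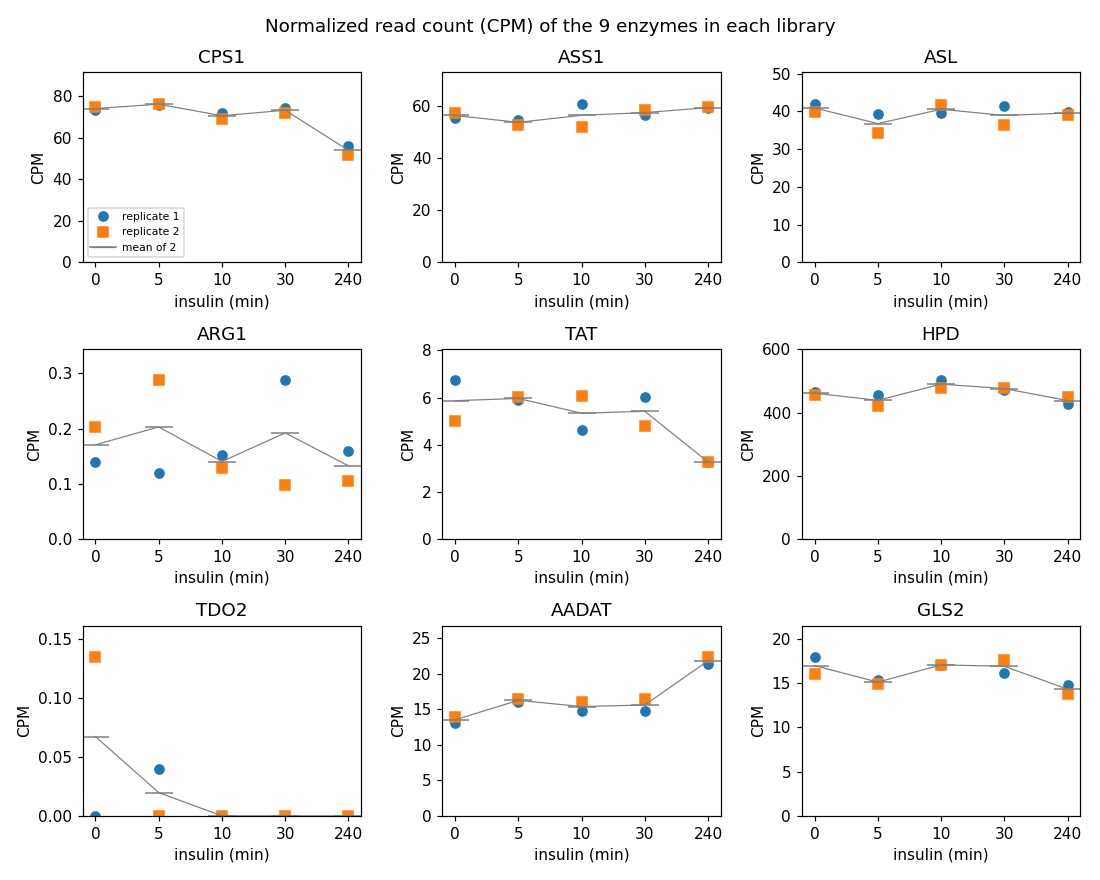
Normalized read count (CPM after TMM) of each of the 9 enzymes in each library, with time of insulin in min on an evenly spaced axis, points for replicates 1 and 2 and bars for their mean. CPS1 and TAT lie lowest and AADAT highest at 240 min, while ASS1, ASL and HPD stay within a narrow band.

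CPS1 (chr2:211342406-211543832, plus strand) had 73.2 and 74.8 CPM in the 2 libraries at 0 min, 75.8 and 76.4 CPM at 5 min, 72.0 and 69.1 CPM at 10 min, 74.3 and 72.1 CPM at 30 min, and 56.1 and 51.6 CPM at 240 min. Both 240 min libraries lay below all 8 earlier ones, which stayed close together. From 74.0 ± 1.10 CPM to 53.9 ± 3.18 CPM (SD, n = 2 each), CPS1 fell by 27.1%, or by 0.46 on the log2 scale (SE 0.054, 95% interval -0.57 to -0.34, edgeR adjusted p = 2.02e-06). This call at 240 min against 0 min held under all alternatives tried. Scaled by the ERCC spike-ins, RNAs added to the samples, the log2 fold change was -0.57 with an edgeR adjusted p of 0.0368, where the median of all genes moved to -0.12.

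ASS1 and ASL, further along the cycle, did not pass the test. ASS1 (chr9:133320094-133376661, plus strand) had 55.2 and 57.5 CPM at 0 min and 59.1 and 59.6 CPM at 240 min, and over all libraries it ranged from 51.9 to 60.9 CPM. Its log2 fold change was 0.07, with a 95% interval of -0.063 to 0.21 and an edgeR adjusted p of 0.395. ASL (chr7:65540776-65558329, plus strand) had 42.1 and 39.8 CPM at 0 min against 40.0 and 39.2 CPM at 240 min, and these groups overlapped. Its log2 fold change was -0.04, with a 95% interval of -0.19 to 0.11 and an edgeR adjusted p of 0.675. For both genes the intervals leave out a change as large as that of CPS1, while small changes either way remain within them. OTC had a log2 fold change of -0.25 with a wide 95% interval of -0.70 to 0.19 and an edgeR adjusted p of 0.369, from 34 to 99 counts per library.

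In tyrosine breakdown the first enzyme fell and the second did not pass the test. TAT (chr16:71600754-71610998, minus strand) had 6.73 and 5.01 CPM at 0 min, 5.90 and 6.03 CPM at 5 min, 4.63 and 6.05 CPM at 10 min, 6.03 and 4.81 CPM at 30 min, and 3.28 and 3.26 CPM at 240 min. The replicates at 0, 10 and 30 min stood well apart from each other, yet both 240 min libraries lay below every earlier library. TAT fell by 42.4%, or by 0.80 on the log2 scale (SE 0.18, 95% interval -1.18 to -0.42, edgeR adjusted p = 0.00163), from 5.87 ± 1.22 to 3.27 ± 0.0128 CPM (SD, n = 2 each). With 62 to 223 counts per library, it had the widest interval of the 7 enzymes. Reads of TAT-AS1, which overlaps TAT on the opposite strand, were set apart by the stranded counting.

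HPD (chr12:122277433-122326517, minus strand), at 8557 to 20335 counts per library the most deeply covered of the group, had 466 and 457 CPM at 0 min and 427 and 450 CPM at 240 min. The groups did not overlap, but 5 min replicate 2 was lower than either 240 min library at 422 CPM. Its log2 fold change was -0.07, with a 95% interval of -0.18 to 0.033 and an edgeR adjusted p of 0.265.

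AADAT was the only one of the 7 that rose. It lies at chr4:170981373-171011538 on the minus strand and had 13.0 and 14.0 CPM at 0 min, 16.1 and 16.4 CPM at 5 min, 14.7 and 16.0 CPM at 10 min, 14.8 and 16.4 CPM at 30 min, and 21.3 and 22.3 CPM at 240 min. Both 240 min libraries lay above all earlier ones, and all 6 libraries at 5, 10 and 30 min lay between those at 0 min and those at 240 min. From 13.5 ± 0.656 to 21.8 ± 0.697 CPM (SD, n = 2 each), the rise was 60.2%, or 0.68 on the log2 scale (SE 0.086, 95% interval 0.50 to 0.86, edgeR adjusted p = 3.82e-06). Under ERCC scaling the log2 fold change was 0.57 with an edgeR adjusted p of 0.0575, no longer past the threshold. All other alternatives kept the call.

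GLS2 (chr12:56864728-56882198, minus strand) had 17.9 and 16.0 CPM at 0 min, 15.3 and 14.9 CPM at 5 min, 17.0 and 17.1 CPM at 10 min, 16.2 and 17.6 CPM at 30 min, and 14.8 and 13.8 CPM at 240 min. Both 240 min libraries lay below all earlier ones, but by a narrow margin from 5 min replicate 2. GLS2 fell by 0.23 on the log2 scale (SE 0.089, 95% interval -0.42 to -0.042, edgeR adjusted p = 0.0468), from 17.0 ± 1.33 to 14.3 ± 0.746 CPM (SD, n = 2 each). The call was lost under 8 of 12 alternative settings, DESeq2 among them (adjusted p = 0.128). It was also lost without 0 min replicate 1 (edgeR adjusted p = 0.242), 10 min replicate 1 (0.0602), 10 min replicate 2 (0.0566), 240 min replicate 1 (0.0686) or 240 min replicate 2 (0.207). In a gene annotation looked up here, another protein-coding gene overlaps GLS2 on the same strand, and another overlaps ASL. Noncoding genes overlap CPS1, ASS1 and HPD on the same strand. The authors' counting held CPS1-IT1, the noncoding gene on the strand of CPS1, with 5 counts over all libraries beside 17863 for CPS1. Whether it held the other overlapping genes, and how shared reads were counted, was not checked.

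In all, 6 of the 7 tested enzymes had groups that did not overlap at 240 min against 0 min, beside 69.7% of all genes tested. Against the 8 earlier libraries together, a reference chosen after the values were seen, 4 of the 7 enzymes had both 240 min libraries outside the earlier range, beside 44.7% of all genes. In that comparison 47.4% of all genes were called by edgeR, and CPS1 (fell by 0.44 on the log2 scale), TAT (fell by 0.78), GLS2 (fell by 0.20, adjusted p = 0.0353) and AADAT (0.52 higher) were among them.

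**Figure D3:**
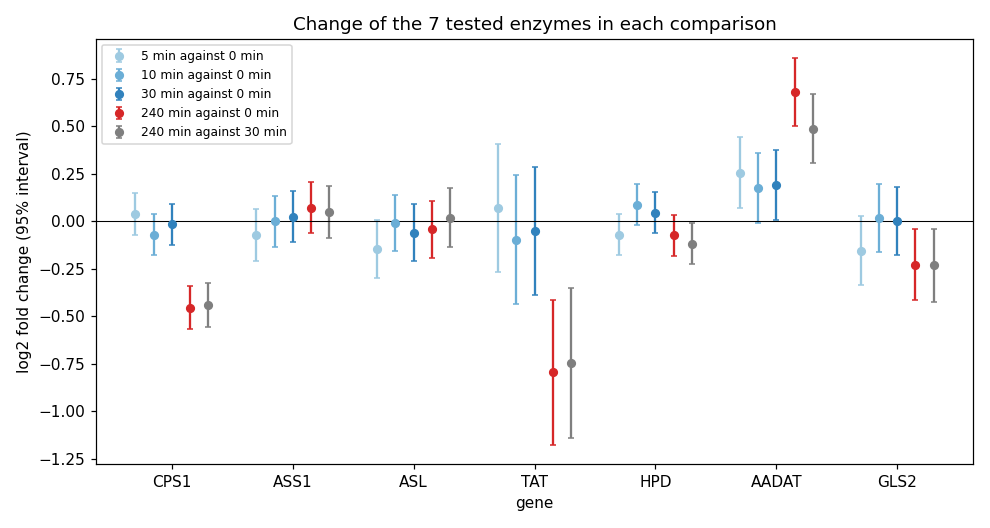
log2 fold changes of the 7 tested enzymes with 95% intervals, for each time against 0 min and for 240 min against 30 min. The intervals of CPS1, TAT and AADAT at 240 min lie far from 0, those of ASS1 and ASL span 0 at every time, and TAT has the widest intervals.

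At 5, 10 and 30 min none of the 7 enzymes passed edgeR's test, beside 0, 0.137 and 0.332% of all genes tested at these times (0.0433% higher and 0.0938% lower at 10 min, 0.188% higher and 0.144% lower at 30 min). At an unadjusted p under 0.05 the counts of enzymes were 1, 0 and 1, and DESeq2 and the other alternatives also called 0 of them. The gene was AADAT each time, with a log2 fold change of 0.26 at 5 min (95% interval 0.072 to 0.44, edgeR adjusted p = 0.259) and 0.19 at 30 min (95% interval 0.0065 to 0.38, edgeR adjusted p = 0.582). At 10 min its value was 0.18, with a 95% interval of -0.0085 to 0.36.

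For CPS1, the log2 fold changes at 5, 10 and 30 min were 0.04, -0.07 and -0.02, each with an interval that leaves out the size of its fall at 240 min. For TAT they were 0.07, -0.10 and -0.05, with intervals that reached from -0.44 to 0.41 in all. The groups did not overlap for 6 of the 7 enzymes at 5 min, 3 at 10 min and 2 at 30 min, beside 48.4, 37.2 and 38.3% of all genes. All 4 comparisons with 0 min share the same 2 control libraries, so a deviation of those libraries enters each of them.

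The comparison of 240 min with 30 min uses no 0 min library, though it shares the 240 min libraries with the one above. CPS1, TAT and AADAT passed here as well, 3 of the 7 enzymes (42.9%) beside 38.2% of all genes tested (19.8% higher and 18.4% lower). CPS1 fell by 0.44 on the log2 scale (edgeR adjusted p = 3.79e-06), TAT fell by 0.74 (edgeR adjusted p = 0.00396) and AADAT rose by 0.49 (edgeR adjusted p = 0.000179). Without 30 min replicate 1, the higher of the 2 libraries for TAT at that time, the adjusted p of TAT was 0.0818 and its log2 fold change -0.56. Under ERCC scaling none of the enzymes passed, with CPS1 at an edgeR adjusted p of 0.182, TAT at 0.0504 and AADAT at 0.127 and log2 fold changes of -0.43, -0.73 and 0.50.

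GLS2 had a log2 fold change of -0.23 (edgeR adjusted p = 0.0544) and HPD of -0.12 (edgeR adjusted p = 0.0759) against 30 min. GLS2 passed with the likelihood ratio test (adjusted p = 0.0476), RLE scaling (0.04999) and without 30 min replicate 1 (0.0490), and HPD passed with DESeq2 (adjusted p = 0.0493). The values of ASS1 and ASL were 0.05 and 0.02, with 95% intervals of -0.089 to 0.19 and -0.14 to 0.17. Of the 7 enzymes, 6 had groups that did not overlap, beside 65.9% of all genes. The median log2 fold change was -0.12 for the enzymes and -0.00015 for all genes.

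In TPM, the order of AADAT and GLS2 reversed between 0 and 240 min. The ratio of AADAT to GLS2 was 0.843 and 0.976 at 0 min, and it was 1.52 and 1.83 at 240 min. In between, the 6 libraries had ratios from 0.997 to 1.27. AADAT also came up to CPS1, at 22.4 against 26.6 TPM in 240 min replicate 1 and 24.3 against 23.6 TPM in replicate 2. HPD, ASS1 and ASL kept their places in every library, and TAT stayed below GLS2.

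Other genes of amino acid breakdown moved in both directions. Of 82 listed enzymes and carriers, 75 were tested, and at 240 min against 0 min 9 rose and 17 fell (34.7% called, beside 41.0% of all genes), with a median log2 fold change of -0.046. The split depended on the scaling, with 11 higher and 11 lower under upper-quartile scaling, 12 and 7 with limma on log2(TPM + 1), and 0 and 5 under ERCC scaling, and without 0 min replicate 2 it was 7 and 8. Against 30 min 10 rose and 10 fell (26.7% called, beside 38.2% of all genes), and at 5, 10 and 30 min edgeR called 0 of the 75, with 11, 3 and 7 at an unadjusted p under 0.05.

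**Figure D4:**
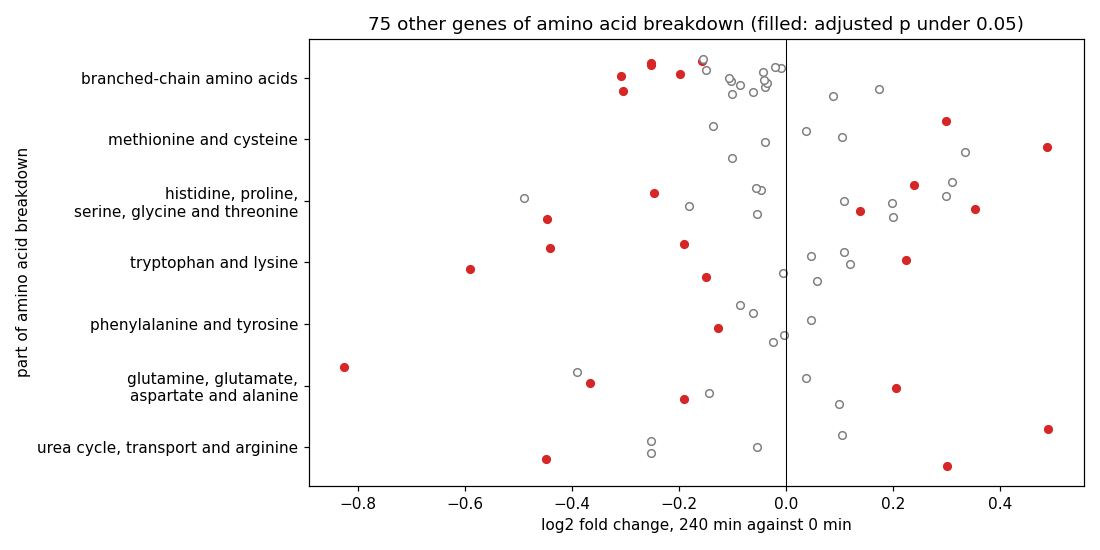
log2 fold change at 240 min against 0 min of the 75 other tested genes of amino acid breakdown, grouped by pathway, with filled points for an edgeR adjusted p under 0.05. GPT2 lies farthest to the left at -0.83, and all filled points of the branched-chain group lie left of 0. Of all genes tested, 20.6% were called higher and 20.4% lower.

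The largest rises were those of SLC25A15, the mitochondrial ornithine carrier of the urea cycle (0.49 on the log2 scale), BHMT2, a methyltransferase that makes methionine (0.49), and DMGDH, which breaks down dimethylglycine (0.35). The largest falls were those of GPT2, the mitochondrial alanine aminotransferase (-0.83, from 328 to 185 CPM), CCBL1, a kynurenine aminotransferase like AADAT (-0.59), and ARG2 (-0.45). All 6 had edgeR adjusted p-values of at most 0.00139, and under ERCC scaling the 3 falls passed and the 3 rises did not. The call of CCBL1 was lost in all 3 fits by limma on TPM (adjusted p = 0.0539 to 0.0588). ARG2 fell from 39.1 to 28.5 CPM, while ARG1 could not be tested.

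The counts by pathway at 240 min against 0 min come from small groups, beside 20.6% of all genes called higher and 20.4% lower. Of the 7 tested genes of the urea cycle, its transport and arginine, 2 rose (SLC25A15 and AGMAT) and 1 fell (ARG2). In the group of glutamine, glutamate, aspartate and alanine 1 of 8 rose, GLUL, which makes glutamine, and 3 fell, GPT2 and GOT1 among them. The 6 genes of phenylalanine and tyrosine, which leave out TAT and HPD, held a single call, HGD, the next enzyme after HPD. HGD fell by 0.13 on the log2 scale, close to the threshold (edgeR adjusted p = 0.0356). Of 10 genes of tryptophan and lysine, 4 fell, KYNU by 0.44 on the log2 scale among them, and DHTKD1 rose.

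In the group of histidine, proline, serine, glycine and threonine 3 of 15 rose and 2 fell. In methionine and cysteine 2 of 8 rose (BHMT2 and MAT1A) and 0 fell. In branched-chain breakdown 0 of 21 rose and 6 fell (28.6%, beside 20.4% of all genes called lower). Of the branched-chain genes, 2 were called lower without 0 min replicate 2 and with limma on log2(TPM + 1), and 0 under ERCC scaling. AGMAT, GLUL, GOT1, HGD, DHTKD1 and MAT1A were named after their values were seen. Against 30 min, BHMT2 (0.63), SLC25A15 (0.47) and BHMT (0.43, edgeR adjusted p = 0.0483) had the largest rises, and GPT2 (-0.61), KYNU (-0.43) and AUH (-0.43) the largest falls. The call of BHMT was lost without 0 min replicate 1 or 2, 30 min replicate 2 or 240 min replicate 1, with edgeR adjusted p-values of 0.0522 to 0.522, and leaving out 30 min replicate 2 or 240 min replicate 1 brought its log2 fold change to 0.28 or 0.19. It was also lost with DESeq2 (adjusted p = 0.0939), ERCC scaling (0.260) and limma on TPM (0.0916 to 0.0994). Under ERCC scaling BHMT2 and GPT2 kept their calls against 30 min, and SLC25A15, KYNU and AUH did not. SLC25A2, ASPG, KMO, ACMSD, IDO1, IDO2 and SDS did not pass the filter on low counts.

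The genes whose profiles over the 10 libraries were most like those of the 4 called enzymes were listed by Pearson's r of log2(CPM + 1) among the 10387 tested genes whose mean CPM reached 5. For CPS1 they were LPPR1 (r = 0.995), SNX1 (r = 0.994) and ACVR2B (r = 0.993). For AADAT they were OPA1 (r = 0.986), PMS2 (r = 0.984) and HIF1A (r = 0.984). For TAT they were ENSA, TM2D1 and TARS2, with r from 0.953 to 0.974, and for GLS2 they were ENTHD2, ACOT7 and LRRC42, with r from 0.936 to 0.975. The 10 points share 5 times and a single contrast between 240 min and the rest, and these values are a description without a test.

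IR ChIP-seq gave 1 peak within 5 kb of the 9 genes, beside 15.7% of all tested genes with such a peak. It lay at chr2:211341205-211341557, 849 bases before the start of CPS1, and the authors' annotation assigned it to LANCL1, at 48 bases from the start of that gene. Its score of 29 ranked 1687 of 1971 peaks, below the median score of 79. The other 8 genes had no peak within 20 kb, with HPD nearest at 39.2 kb and AADAT farthest at 3280 kb. The ChIP-seq was 1 library without replicates, so these positions have no replicate check.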

How the data were processed

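RNA-seq counts from 10 HepG2 libraries and the IR ChIP-seq peaks of 1 library were analysed. The authors trimmed reads with Trim Galore 0.6.4, aligned them to hg19 with STAR 2.6.1d, marked duplicates and deposited raw reverse-stranded counts per gene from featureCounts 1.6.4, and they deposited TPM from StringTie. The peak score and annotation are those the authors deposited from BWA, MACS2 and HOMER.

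Here, 92 ERCC rows (1.59% to 2.36% of counts) were left out, and edgeR 4.0.16 in R 4.3.3 fitted all 10 libraries together, with TMM scaling, filterByExpr by time and quasi-likelihood F tests, time as the only term, Benjamini-Hochberg adjustment over 13852 genes and a threshold of 0.05. All tests were two-sided. Each standard error is the size of the log2 fold change divided by the square root of its F. Scripts were tested on simulated data. Replicates differed beyond counting noise (chi-square per degree of freedom 2.81 to 6.32), so none was counted as a repeat run of the same library. This check cannot tell separate cultures from separate libraries of the same RNA. Peaks were counted within 5 kb of a gene body.

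The genes and lists were chosen with earlier results of these data known. Named were the 9 enzymes, OTC, ARG2, the 3 largest rises and falls among called pathway genes, and the 3 genes most correlated with each enzyme called at 240 min against 0 min. Values of 1 further gene of the pathway list are not reported here. Alternatives were DESeq2 1.42.0, the likelihood ratio test, no filter or 10 counts in every sample, RLE, upper-quartile and ERCC scaling, a replicate block, only the times compared, limma 3.58.1 on log2(TPM + 1), on log2(TPM + 0.1) and without genes whose mean TPM was under 1, each library left out, peaks within 1 or 20 kb and peaks above the median score. The comparison of 240 min with all earlier libraries was added after the values were seen.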

Additional observations from a re-analysis of the deposited data

Results flagged for a closer look

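For CPS1, TAT and AADAT the change from 0 min differed between 240 and 30 min, by edgeR's test of the contrast already given above. Insulin and time in culture cannot be told apart in it. The change of CPS1 at 240 min was lower than that at 30 min by a log2 difference of -0.44 (adjusted p = 3.79e-06), and both 240 min libraries were below both 30 min libraries. The difference was -0.74 for TAT (adjusted p = 0.00396), again with both 240 min libraries below, and 0.49 for AADAT (adjusted p = 0.000179), with both above. The 0 min libraries cancel in these differences.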

How the results depend on the processing

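Among the enzymes and the pathway genes with the largest rises and falls of each comparison, no called gene turned its direction. AGMAT, GLUL, GOT1, HGD, DHTKD1 and MAT1A, and KYNU at 240 min against 0 min, are not covered by this statement. ERCC scaling changed most: 1059 genes were then called at 240 min against 0 min (31.3% of them higher, against 50.2%) and 917 against 30 min (62.5% higher, against 51.8%), with 2 and 0 of the 7 enzymes, and the median log2 fold change of all genes was -0.083, -0.33, -0.13 and -0.12 at 5, 10, 30 and 240 min against 0 min. limma on TPM gave 60.2% to 60.7% of calls at 240 min against 0 min as higher. The cause was not tested. At 5 min, where edgeR called 0 genes (1976 at an unadjusted p under 0.05), DESeq2, the replicate block, the times compared alone and limma with a pseudocount of 1 or 0.1 called 1 each, ERCC scaling and limma at a mean of at least 1 TPM called 2, the likelihood ratio test 19 and no filter 144. At 10 min, against 19 genes, the likelihood ratio test called 43, no filter 74, the times compared alone 40, and limma 1, 4 and 1. At 30 min, against 46 genes, they were 96 with the likelihood ratio test, 160 with no filter, 4 with ERCC scaling, and 9, 8 and 8 with limma.

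Leaving out each library in turn gave 0 to 22 genes at 5 min, 9 to 24 at 10 min, 18 to 53 at 30 min, 3893 to 5785 at 240 min against 0 min and 3947 to 5318 against 30 min, with 3 to 4 of the enzymes in the fourth, 3 in the last and 0 in the others. The main fit treated same-numbered replicates as unpaired. Over 10 pairs of times their deviations correlated at -0.23 to 0.20, and 4 pairs were over 0.1, so this check did not settle whether they were paired. With the replicate block, 1, 21, 59, 5845 and 5477 genes were called in the 5 comparisons in the order above, and the same counts of enzymes. Of the peaks above the median score, 0 lay within 5 kb of the enzymes. TAT and OTC, at fewer than 250 counts per library, had the widest intervals of the genes named, and ARG1 and TDO2 were too low to test.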
